A study of Mus musculus with 6 samples.

Results

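The 10 genes described here encode secreted acute-phase proteins: the serum amyloids Saa1, Saa2, Saa3 and Saa4, the orosomucoids Orm1, Orm2 and Orm3, haptoglobin (Hp), lipocalin 2 (Lcn2) and serum amyloid P (Apcs). They were taken by name from the probes of the liver arrays, and all 10 were found among the 21367 gene symbols that those probes carry, with 1 probe each. The arrays measured total RNA from snap-frozen liver of 3 Itpr2KO mice and 3 C57Bl/6 wild-type mice, all killed at 23 months. Itpr2 encodes an inositol trisphosphate receptor, a channel that releases calcium from the endoplasmic reticulum. The mice received no specific treatment and belonged to a survival cohort kept under specific pathogen-free conditions on a standard diet. The type of Itpr2 allele, the cells that carry it and the sex of the mice are not stated in the labels used here. The Itpr2KO arrays are called KO 1, KO 2 and KO 3 and the wild-type arrays WT 1, WT 2 and WT 3. These numbers do not pair animals.

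Acute-phase proteins are made mainly by hepatocytes and released into the blood. Infection or injury leads macrophages to release interleukin 1, interleukin 6 and tumour necrosis factor, and hepatocytes respond through NF-kB, STAT3 and C/EBP factors by transcribing the positive acute-phase genes and making less of the negative ones, such as albumin. In mice serum amyloid A and serum amyloid P are major reactants, and their RNA can differ between animals of one strain according to how inflamed each is.

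The starts of these genes are shown first, since promoters are where those factors are known to act. RefSeq windows of the 250 bases before a transcription start (assembly GRCm38.p6) were at hand for 8 of the 10 genes, all but Orm1 and Hp. Of these, 5 lie outside the annotated span of their gene and are printed below 5′ to 3′ on the strand of the gene, with motif matches in capitals. The Saa2 window is chr7:46751583-46751832 on the plus strand, that of Saa4 is chr7:46732604-46732853 on the minus strand, that of Orm2 is chr4:63362199-63362448 on the plus strand, that of Lcn2 is chr2:32387740-32387989 on the minus strand and that of Apcs is chr1:172895055-172895304 on the minus strand.
Saa2: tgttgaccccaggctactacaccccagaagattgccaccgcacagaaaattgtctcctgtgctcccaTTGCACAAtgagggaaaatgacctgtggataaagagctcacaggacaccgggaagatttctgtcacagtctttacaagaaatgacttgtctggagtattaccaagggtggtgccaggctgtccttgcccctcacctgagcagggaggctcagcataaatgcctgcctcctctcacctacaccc
Saa4: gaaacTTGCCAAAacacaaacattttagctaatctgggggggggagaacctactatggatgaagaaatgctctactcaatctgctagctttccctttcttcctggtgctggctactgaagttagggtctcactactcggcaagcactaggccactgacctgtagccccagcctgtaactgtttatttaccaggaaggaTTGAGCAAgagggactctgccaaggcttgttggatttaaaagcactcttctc
Orm2: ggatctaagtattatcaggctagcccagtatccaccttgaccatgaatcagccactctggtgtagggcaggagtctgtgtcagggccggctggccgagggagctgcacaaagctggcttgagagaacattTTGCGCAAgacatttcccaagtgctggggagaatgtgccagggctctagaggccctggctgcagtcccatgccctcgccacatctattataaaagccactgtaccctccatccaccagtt
Lcn2: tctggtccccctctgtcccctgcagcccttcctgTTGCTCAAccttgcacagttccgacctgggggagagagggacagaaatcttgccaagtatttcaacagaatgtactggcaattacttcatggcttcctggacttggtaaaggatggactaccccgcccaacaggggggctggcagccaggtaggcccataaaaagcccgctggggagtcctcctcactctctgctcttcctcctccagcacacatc
Apcs: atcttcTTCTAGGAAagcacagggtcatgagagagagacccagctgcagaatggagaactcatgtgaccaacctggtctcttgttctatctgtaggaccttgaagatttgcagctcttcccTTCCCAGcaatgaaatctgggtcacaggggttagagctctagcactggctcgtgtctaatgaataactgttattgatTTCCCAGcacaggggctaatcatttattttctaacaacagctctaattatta
The motifs were searched on both strands as the letters TTGCNNAA for C/EBP, TTCNNNGAA for STAT and CTGGGAA for the interleukin 6 type 2 element, and the NF-kB and glucocorticoid receptor consensus motifs were searched likewise. No match overlapped one of another motif, and the Orm2 C/EBP match reads on both strands. C/EBP letters occurred in 7 of the 8 windows, all but that of Apcs, and in 9.56% of the 32851 windows of all genes. The Apcs window held the STAT letters once and the interleukin 6 type 2 letters at 2 places. STAT letters were in 7.02% of all windows and the interleukin 6 type 2 letters in 9.1%. Matches to the NF-kB motif (4.11% of all windows) and the glucocorticoid receptor motif (0.387%) were found in none of the 8 windows, which says only that these letters are not within them. The TATA letters TATAAA, left in lower case, stood in the Orm2 and Orm3 windows and in 12.4% of all windows. Aligned end to end, the Saa1 and Saa2 windows were 94.8% identical and those of Orm2 and Orm3 85.5%, whereas the other pairs of serum amyloid windows were between 43.8% and 48.5% identical.

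Each level below is the log2 signal minus the 75th percentile of log2 signals on that array, so that 1 unit is a 2-fold difference. The levels of different probes are not comparable with each other. On each array 57.5% to 59.5% of probes were well above background and no spot was saturated. What limits the precision was not tested. The targeted gene Itpr2 had levels of 2.54, 2.38 and 2.20 on the Itpr2KO arrays, against 3.04, 3.07 and 3.08 on the wild-type arrays. The Itpr2KO arrays were all lower, with a log2 change of -0.69 ± 0.13 (SE) and an adjusted p of 0.811 in limma, and the labels used here do not say whether its probe lies in a deleted part. Slide 1 carried KO 1, WT 1 and WT 2, and slide 2 carried KO 2, KO 3 and WT 3. Skeletal muscle markers were high on KO 3 and WT 1 only (mean centred levels of 5.24 and 5.20, against at most 0.02 elsewhere), and fat cell markers were highest on KO 3. In bulk liver, fewer cells of a type and less RNA per cell cannot be told apart.

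Saa1 encodes a serum amyloid A that is carried on high-density lipoprotein. Its levels were 8.21, 3.64 and 4.89 on KO 1, KO 2 and KO 3, against 5.39, 5.29 and 5.99 on WT 1, WT 2 and WT 3. KO 1 was above every other array and KO 2 and KO 3 were below all wild-type arrays, so the wild-type values lay inside the range of the Itpr2KO values. The means were 5.58 ± 2.36 in Itpr2KO and 5.56 ± 0.38 in wild type (SD, n = 3 each), and the log2 change was 0.02 ± 1.09 (SE; limma adjusted p = 0.998). Saa2, the neighbouring gene with a closely similar product, followed the same order.

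For Saa2 the levels were 6.60, 3.94 and 5.02 on the Itpr2KO arrays, against 5.28, 5.15 and 5.69 on the wild-type arrays. KO 1 was again highest and KO 2 lowest of all. Its log2 change was -0.19 ± 0.63 (SE; limma adjusted p = 0.968). RefSeq gives the names of Saa1 and Saa2 as synonyms of each other and the genes are near-identical copies, so how much of each signal belongs to which gene is uncertain.

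Saa3 is made in mice by macrophages and other cells as well as by hepatocytes. It was measured at 2.96, 0.12 and 0.77 on the Itpr2KO arrays, against 2.03, 0.59 and 1.94 on the wild-type arrays. Here WT 2 lay close to KO 3, and the genotypes overlapped (log2 change -0.24 ± 0.78 SE, limma adjusted p = 0.965). Saa4, which is made constitutively rather than induced, had levels of 5.50, 3.43 and 2.86 on the Itpr2KO arrays, against 3.35, 2.71 and 3.86 on the wild-type arrays. KO 1 was 3.12-fold above the next highest array, while KO 2 and KO 3 lay among the wild-type arrays. The log2 change of Saa4 was 0.63 ± 0.69 (SE; limma adjusted p = 0.876).

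**Figure D1:**
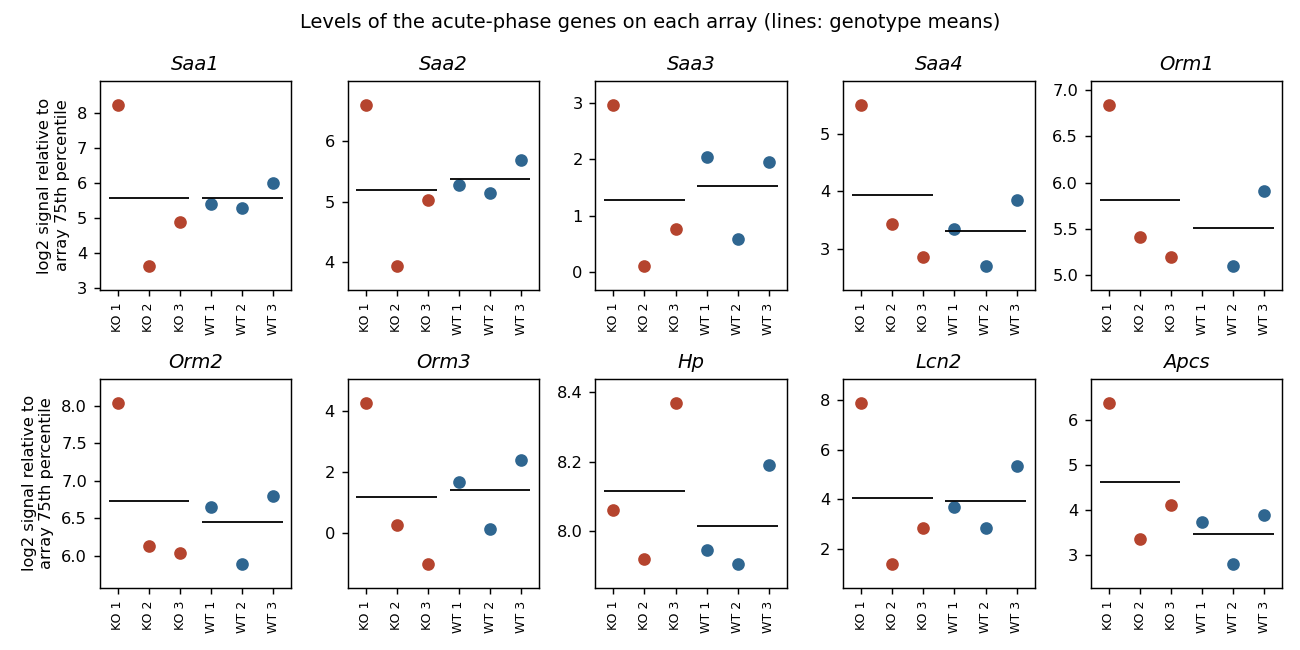
Level of each of the 10 genes on every array, as log2 signal relative to the 75th percentile of the array, with Itpr2KO arrays (red, KO 1 to KO 3) left of wild-type arrays (blue, WT 1 to WT 3) and lines at the genotype means. Vertical axes differ between genes. KO 1 is the highest point in 9 of the 10 panels, and the Orm1 panel has no point for WT 1, so that its wild-type line is the mean of 2 arrays.

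The orosomucoids are lipocalins that bind drugs and other small molecules in plasma, and their genes neighbour each other. Orm1 was measured at 6.84, 5.41 and 5.19 on the Itpr2KO arrays, against 5.10 and 5.91 on WT 2 and WT 3. Its only spot on WT 1 was flagged as an outlier by the scanner software and left out. With that spot kept, WT 1 read 5.32. KO 1 was highest, and the other arrays of both genotypes overlapped (log2 change 0.31 ± 0.56 SE on 5 arrays, limma adjusted p = 0.933).

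Orm2 had levels of 8.04, 6.13 and 6.04 on the Itpr2KO arrays, against 6.66, 5.90 and 6.80 on the wild-type arrays. KO 1 was 2.36-fold above WT 3, the next array, and KO 2 and KO 3 stood between the wild-type arrays. The log2 change was 0.29 ± 0.57 (SE; limma adjusted p = 0.937). Orm3 spread furthest of the 3, with levels of 4.26, 0.27 and -0.99 on the Itpr2KO arrays, against 1.68, 0.14 and 2.39 on the wild-type arrays. KO 3 was its lowest array, 38.2-fold below KO 1, and the wild-type arrays themselves covered 4.77-fold. The log2 change of Orm3 was -0.22 ± 1.35 (SE; limma adjusted p = 0.984). The 3 orosomucoid genes are related copies and their probe sequences were not compared, so the assignment of signal among them is uncertain.

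Haptoglobin, which binds free haemoglobin, differed from the other members in how little it varied. Hp had levels of 8.06, 7.92 and 8.37 on the Itpr2KO arrays, against 7.95, 7.91 and 8.19 on the wild-type arrays. KO 3 was highest and all 6 arrays lay within a 1.38-fold range. The log2 change was 0.10 ± 0.17 (SE; limma adjusted p = 0.921).

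Lcn2, a lipocalin that captures bacterial siderophores and is also stored in neutrophil granules, varied most. Its levels were 7.87, 1.43 and 2.84 on the Itpr2KO arrays, against 3.69, 2.84 and 5.34 on the wild-type arrays. KO 1 was 5.80-fold above WT 3, the next highest array, and 87.0-fold above KO 2, the lowest. The means were 4.05 ± 3.39 in Itpr2KO and 3.96 ± 1.27 in wild type (SD, n = 3 each), with a log2 change of 0.09 ± 1.65 (SE; limma adjusted p = 0.998). Apcs, a pentraxin that binds amyloid fibrils, was measured at 6.37, 3.35 and 4.11 on the Itpr2KO arrays, against 3.73, 2.82 and 3.88 on the wild-type arrays. KO 1 stood 4.79-fold above KO 3, and KO 2 and KO 3 were within or just above the wild-type values. Its log2 change of 1.14 ± 0.77 (SE; limma adjusted p = 0.832) was the largest of the members and gave their smallest p.

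No member differed between the genotypes at an adjusted p under 0.05 in limma, and none at an unadjusted p under 0.05. Over all 17991 genes tested, 0.00556% passed the adjusted threshold and 6.13% the unadjusted one. No member had all Itpr2KO arrays above or all below the wild-type arrays, against 6.93% and 5.18% of all genes. The Itpr2KO mean was the higher one in 7 members and the lower one in 3, with a median log2 change of 0.10 beside 0.02 over all genes. That split depended on the processing: it was 1 higher and 9 lower with normexp background correction (median -0.36), 5 and 5 with quantile normalization (median 0.05), and 8 and 2 without the arrays with high muscle markers (median 0.59). Exact two-sided permutation tests gave p between 0.4 and 1 for the 9 members measured on all arrays, where 3 against 3 arrays allow no p under 0.1. The errors were wide, since the SE of the log2 change was over 0.5 in 9 of the 10 members, so the arrays do not show that the genotypes were alike.

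Most members spread widely within a genotype. The pooled SD within genotypes had a median of 1.18 log2 units over the 9 members measured on all arrays, against 0.230 over all genes, and 8 of the 9 were in the top 5% of genes. The range over 6 arrays passed 2 log2 units in those same 8 members and in 5.57% of all genes. Hp, with a pooled SD of 0.195, was the exception. Such spread was not particular to the members, since the 13 neutrophil markers measured had a median pooled SD of 1.36, and the acute-phase genes Steap4 and Hamp2 had 1.39 and 1.54. The SD was larger in Itpr2KO than in wild type in all 9, as it was in 71.6% of all genes, and over 2 times larger in 7 of 9 members against 38.8% of all genes. The ratio of the SDs was 6.21 for Saa1, 4.70 for Saa2, 2.73 for Apcs, 2.67 for Lcn2 and 1.49 for Hp, each from 3 arrays a genotype.

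**Figure D2:**
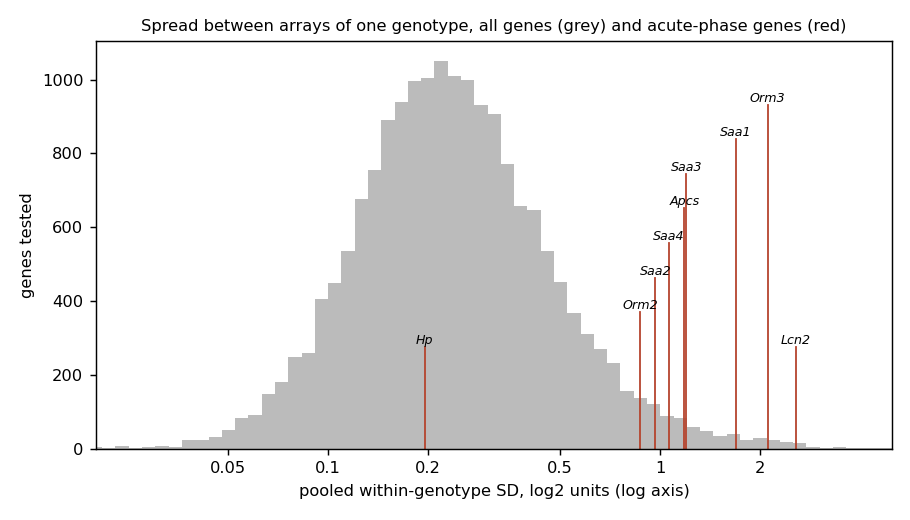
Distribution of the pooled within-genotype SD over all genes tested (grey, log2 units on a log axis, number of genes on the vertical axis) with the 9 members measured on all arrays as red lines, whose heights only separate the names. Hp at 0.195 lies near the middle of the distribution, and the other 8 lie in its upper tail, up to Lcn2 at 2.56.

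One Itpr2KO array stood far above the others. KO 1 was the highest of all arrays in 9 of the 10 members, the exception being Hp, and in 16.9% of all genes. It exceeded every other array by over 1 log2 unit in 6 members (Saa1, Saa4, Orm2, Orm3, Lcn2 and Apcs) and in 0.711% of all genes. The lowest Itpr2KO array was KO 2 in 6 members and KO 3 in 4. The wild-type arrays differed among themselves in a like order from gene to gene. WT 2 was the lowest of them in all 10 members and WT 3 the highest in 9, with WT 1 highest for Saa3. For Orm1 only WT 2 and WT 3 were measured, and the share of all genes with this order was not counted. WT 3 exceeded WT 2 by 5.64-fold for Lcn2, 4.77-fold for Orm3, 2.56-fold for Saa3, 1.62-fold for Saa1 and 1.22-fold for Hp.

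Leaving out KO 1 turned the log2 change of Saa1, Saa4, Orm1, Orm2 and Lcn2 negative. On the 5 remaining arrays, 8 of the 10 members had the lower mean in Itpr2KO, and the median log2 change was -0.63. Saa1, Saa2 and Lcn2 then lay below all wild-type arrays on both Itpr2KO arrays, which is 3 of 10 members against 12.1% of all genes, and Saa1 alone had an unadjusted p under 0.05, against 9.42% of all genes. Their log2 changes were -1.29 ± 0.43 for Saa1, -0.89 ± 0.36 for Saa2 and -1.82 ± 0.82 for Lcn2 (SE). The limma adjusted p was 0.513 for Saa1, 0.529 for Saa2 and 0.532 for Lcn2, so none passed. Hp (0.13) and Apcs (0.26) kept the higher mean in Itpr2KO without KO 1. KO 1 is the array that was highest in 9 of these same 10 members. Leaving out KO 2 instead gave all 10 members the higher mean in Itpr2KO (median 0.55), and leaving out KO 3 gave 8 (median 0.63). The direction thus depended on which array was left out.

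The slides gave opposite directions. Within slide 1, where KO 1 was the only Itpr2KO array, all 10 members were higher on KO 1 than on the wild-type arrays of that slide (for Orm1, WT 2 alone), with a median log2 change of 2.12. Over all genes 34.4% were higher on KO 1 in this way. Within slide 2, where WT 3 was the only wild-type array, all 10 had the lower mean in Itpr2KO, with a median of -0.96, and 8 were below WT 3 on both KO 2 and KO 3, as were 26.5% of all genes. With a lone array in 1 genotype on each slide, these are values with no test. Saa1 changed by 2.87 within slide 1 and by -1.73 within slide 2, and Lcn2 by 4.61 and -3.20. With the slide as a block the median was 0.46 and all 10 changes were positive, none past the adjusted threshold. The difference between the slides was not tested. The slides differ in which animals they carry as well as in hybridisation, and these cannot be told apart.

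**Figure D3:**
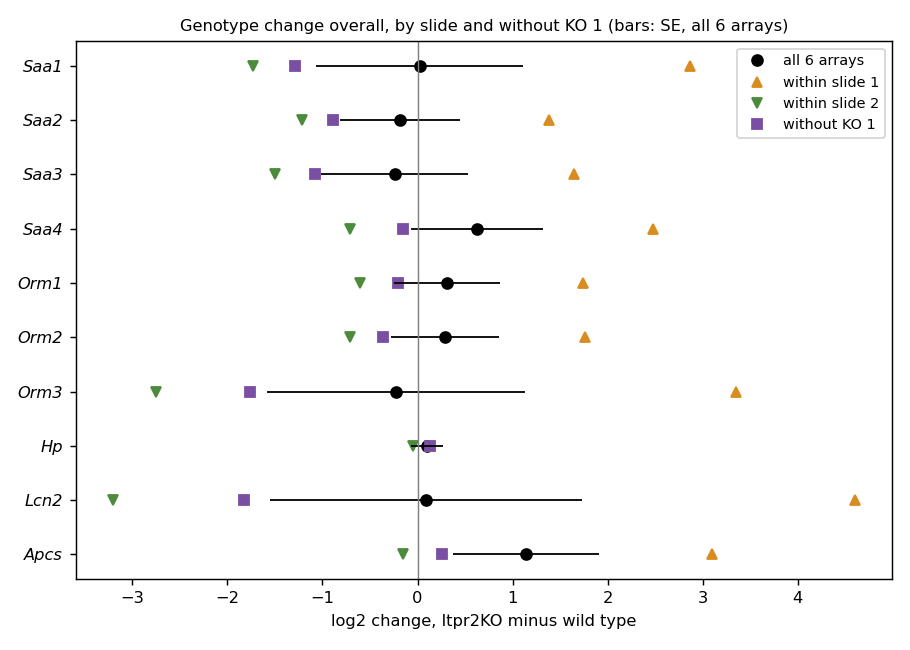
Log2 change of each member, Itpr2KO minus wild type (horizontal axis), with all 6 arrays (black, bars are SE), within slide 1 (orange), within slide 2 (green) and without KO 1 (purple). Every slide 1 value is above 0, up to 4.61 for Lcn2, and every slide 2 value is below 0, down to -3.20 for Lcn2, while the values over all arrays run between -0.24 for Saa3 and 1.14 for Apcs.

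Likeness between genes was taken as the mean difference per array. Orm1, not measured on WT 1, was not compared. After each gene was centred on its median, Saa4 and Orm2 differed by a mean of 0.249 log2 units per array. That was the smallest difference among the 9 members measured on all arrays, and Hp and Lcn2 had the largest, at 1.63. Of the 13572 other named genes measured on all 6 arrays, the one nearest to Saa1 was Steap4, a metalloreductase, at a mean difference of 0.247. Steap4 had levels of 3.49, 0.18 and 0.11 on the Itpr2KO arrays, against 0.74, 0.69 and 1.40 on the wild-type arrays. It was also among the nearest 3 to Orm3 and Lcn2, for which Cxcl1, a neutrophil-attracting chemokine, came first at 0.496 and 0.740. Orm2 was nearest to Lbp, which encodes the lipopolysaccharide-binding protein, at 0.136. The nearest to Saa2 was Sel1l3 (0.179), to Saa3 Slc41a2 (0.251), to Hp Th (0.0351) and to Apcs B3galt1 (0.116). Serpina3n, another acute-phase gene, was among the nearest 3 to Apcs at 0.186, and the complement gene C4b among those to Hp at 0.0374. These are descriptions over 6 arrays of the same animals, and a gene that is high on KO 1 is near a member by that alone.

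Of 27 other positive acute-phase genes 26 were measured, and none passed the adjusted threshold in limma. The mean was higher in Itpr2KO in 24 of them (92.3%, against 54.1% of all genes) and lower in 2. Their median log2 change was 0.21 beside 0.02 over all genes. An unadjusted p under 0.05 was found for 1 of the 26, against 6.13% of all genes. That gene was Serpina3k, a serine protease inhibitor, with levels of 7.93, 7.58 and 8.17 on the Itpr2KO arrays, against 7.04, 6.92 and 7.13 on the wild-type arrays. All its Itpr2KO arrays lay above all wild-type arrays, as in 2 of the 26 genes, in no member and in 6.93% of all genes. Its log2 change was 0.86 ± 0.18 (SE; limma adjusted p = 0.811). The metallothionein genes Mt2 and Mt1, which bind zinc, came next by p. Mt2 had a log2 change of 1.77 ± 0.76 (SE) and Mt1 of 0.88 ± 0.39 (SE), both at an adjusted p of 0.811. Hamp2, a hepcidin gene, ran the other way on KO 1, with 3.80, 7.82 and 7.18 on the Itpr2KO arrays, against 6.93, 6.62 and 6.31 on the wild-type arrays. KO 1 was highest in 12 of the 26 genes and by over 1 log2 unit in 3.

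Of 16 negative acute-phase genes 15 were measured, none past the adjusted threshold. Their means were higher in Itpr2KO in 10 (66.7%, against 54.1% of all genes) and lower in 5, with a median log2 change of 0.14. The smallest p belonged to Igf1, the liver's growth factor for the circulation, at 0.33 ± 0.14 (SE), followed by Apoa1, the main protein of high-density lipoprotein, at 0.50 ± 0.29 and Serpina6, which carries corticosteroids, at -0.51 ± 0.31 (limma adjusted p = 0.811, 0.814 and 0.820). Apoa4, Serpina7 and Mup20 had the widest ranges. Serpina7, which carries thyroid hormone, was at 3.03, 0.29 and 0.76 on the Itpr2KO arrays, against 1.99, 1.12 and 1.00 on the wild-type arrays, so that it too was highest on KO 1. KO 1 was the highest array in 2 of these 15 genes (13.3%), against 16.9% of all genes.

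Among 38 genes of the signalling that leads to the acute phase, 36 were measured and none passed the adjusted threshold in limma. The mean was higher in Itpr2KO in 23 (63.9%, against 54.1% of all genes) and lower in 13. An unadjusted p under 0.05 was found for 3 of the 36, against 6.13% of all genes. Stat3, the factor downstream of the interleukin 6 receptor, had levels of 4.51, 3.51 and 3.95 on the Itpr2KO arrays, against 3.28, 2.70 and 3.53 on the wild-type arrays, a log2 change of 0.82 ± 0.32 (SE; adjusted p = 0.811). The other 2 were the cytokine genes Tnf and Il1a, which passed the filter only through wild type. Tnf was well above background on 1 and Il1a on 2 of the Itpr2KO arrays, against 3 wild-type arrays for each, so no fold is given for them. KO 1 was the highest array in 19 of the 36 genes (52.8%), against 16.9% of all genes. The 3 genes with the widest ranges were among these 19, and a single high array by itself widens a range. Il1r1, the interleukin 1 receptor, had 2.96, -0.57 and -0.10 on the Itpr2KO arrays, against -0.23, -0.45 and -0.40 on the wild-type arrays. Socs3, a STAT3 target that restrains the same pathway, had 3.21, 0.40 and 0.43 on the Itpr2KO arrays, against 0.48, 0.25 and 1.08 on the wild-type arrays. Osmr, a receptor chain for oncostatin M, had 1.96, -0.54 and 0.16 on the Itpr2KO arrays, against -0.54, -0.15 and -0.49 on the wild-type arrays. The probe of Il6 was well above background on 1 Itpr2KO array and 2 wild-type arrays and was not tested.

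**Figure D4:**
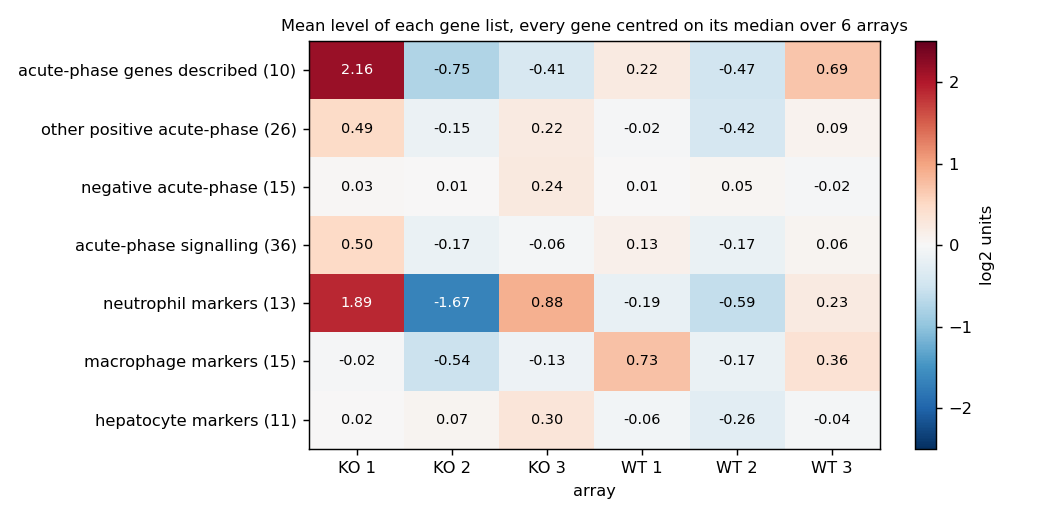
Mean level of each gene list on each array in log2 units, every gene first centred on its median over the 6 arrays, with the number of genes measured in brackets. Itpr2KO arrays are the 3 left columns. The described genes stand at 2.16 on KO 1, and the neutrophil markers at 1.89 on KO 1, -1.67 on KO 2 and 0.88 on KO 3, with 4 of the 13 not above background on all Itpr2KO arrays.

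Neutrophil markers moved with the members on KO 1. Of 15 listed, 13 were measured, and all 13 were highest on KO 1, as were 16.9% of all genes. All 13 had the higher mean in Itpr2KO, against 54.1% of all genes, and none had a limma unadjusted p under 0.05. Their mean centred level on KO 1 was 1.89, while the Itpr2KO arrays ranged from -1.67 to 1.89 and the wild-type arrays from -0.59 to 0.23. Of the 13, Ngp, Ltf, Mmp8 and Stfa2l1 were well above background on only 2 of the Itpr2KO arrays. Over the other 9, a choice made after seeing the data, the Itpr2KO arrays ranged from -1.31 to 1.70 and the wild-type arrays from -0.64 to 0.19, and all 9 were highest on KO 1. S100a8, a neutrophil alarmin, had levels of 3.61, 0.01 and 2.70 on the Itpr2KO arrays, against 1.46, 0.71 and 1.51 on the wild-type arrays. S100a9 had 5.30, 2.13 and 4.81 on the Itpr2KO arrays, against 3.31, 2.64 and 3.42 on the wild-type arrays. On KO 3 the centred mean was 0.88 over the 13 neutrophil markers and -0.41 over the 10 members. Both lists were mixed on that array. Among the markers Cxcr2, at -4.43, lay within the wild-type range. Among the members Hp was highest on KO 3, and Apcs, at 4.11, was above all wild-type arrays. Ly6g, a defining marker, had no probe among those named, and Mmp9 did not pass the background filter. The part of neutrophil RNA in the members' levels was not tested. Macrophage markers did not stand out on KO 1: all 15 were measured and their centred mean on KO 1 was -0.02. The mean was higher in Itpr2KO in 1 of them (6.67%, against 54.1% of all genes) and lower in 14. Of the 15, 5 had a limma unadjusted p under 0.05, all lower, against 6.13% of all genes. All Itpr2KO arrays lay below all wild-type arrays in 3, against 5.18% of all genes. None passed the adjusted threshold. The 11 hepatocyte markers, with Alb at 7.83, 8.21 and 8.43 on the Itpr2KO arrays and 7.94, 7.86 and 8.04 on the wild-type arrays, had a centred mean of 0.02 on KO 1. The mean was higher in Itpr2KO in 10 of the 11 (90.9%, against 54.1% of all genes), and 1 had a limma unadjusted p under 0.05.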

How the data were processed

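Total RNA of 3 Itpr2KO and 3 wild-type livers was labelled with Cy3 and hybridised to 1-colour Agilent arrays, per the labels' protocols. The deposited scanner tables hold intensity values, background-subtracted with Agilent Feature Extraction and unscaled. Its version is 11.5.1.1 in the file headers and 10.7.3.1 in the submitters' processing notes. A second deposited table, the authors' matrix, gives log2 values of 20644 probes and served as an alternative. Its column medians were 0.00207, -0.0094, 0.00497, -0.0127, 0.0106 and 0.00617 for WT 1 to WT 3 and KO 1 to KO 3. Against the scanner values it behaved as log2 signals centred per probe with higher values for more signal, and the choice of its probes is not stated in the labels.

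Values were log2 processed intensity minus the array's 75th percentile over non-control probes. After 818 outlier-flagged spots were removed, repeated spots were averaged. Of 39429 probes, 28330 were named through RefSeq accessions (gene table of GRCm38.p6), 0 had several symbols and 11099 had none. Array headers name mm9, so no coordinates of probes or of that table are given. Promoter windows have the GRCm38.p6 coordinates of the RefSeq promoter table. A probe was kept if well above background on all 3 arrays of a genotype (22297 probes), and the brightest stood for its gene (17991 genes). Genotypes were compared with limma 3.58.1 in R 4.3.3 (lmFit, eBayes, two-sided, Benjamini-Hochberg, threshold 0.05), tested on simulated data. Alternatives covered background correction, scaling, filters, probes, slide, array weights, replicate number, arrays left out and the authors' matrix. Normexp used the median signal, as the tables hold no mean signal. Same-numbered arrays did not deviate together (correlations -0.19, 0.042 and -0.28), so the numbers were not taken as pairs.

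The series design calls the mice independent. The 10 members, the gene lists, motifs and tests were chosen with earlier results of these data known. Named genes are all members, from each related list the 3 smallest p and the 3 widest ranges, up to 4 genes of a marker list and the 3 genes nearest to each member, of which 1 gene is not reported here. The 2 arrays with high muscle markers were set apart by a score limit of 2 set once the scores were known, and the motif capitals leave out TATA, decided after its matches were seen.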

Additional observations from a re-analysis of the deposited data

How the results depend on the processing

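No member passed the adjusted threshold under any of the 20 alternatives, of which the within-slide fits, with a lone array in 1 genotype, are no test. Without KO 1, 1 member (Saa1) had an unadjusted p under 0.05. Of 199 member values 153 kept their direction and 46 turned. The median log2 change of the members moved to 2.12 within slide 1, and the count of members without overlap to 10 within slide 1 and 8 within slide 2, where 1 genotype is a lone array. Leaving out 1 array at a time gave medians from -0.63 to 0.63 and counts without overlap from 0 to 3. Over these the log2 change ran from -1.29 to 0.99 for Saa1, -0.89 to 0.44 for Saa2, -1.08 to 0.34 for Saa3, -0.16 to 1.16 for Saa4, -0.20 to 0.72 for Orm1, -0.37 to 0.63 for Orm2, -1.76 to 0.86 for Orm3, -0.024 to 0.20 for Hp, -1.82 to 1.40 for Lcn2 and 0.26 to 1.77 for Apcs. Normexp turned Saa1 to -0.61, Saa4 to -0.020, Orm1 to -0.30, Orm2 to -0.38, Hp to -0.54 and Lcn2 to -0.33, with 33.0% of all genes at an unadjusted p under 0.05 there, and the cause was not tested. Quantile normalization turned Saa1 to -0.019 and Hp to -0.014, and median scaling Saa1 to -0.058, as the median of all genes moved to -0.059. The slide as a block turned Saa2 to 0.087, Saa3 to 0.071 and Orm3 to 0.30. Within slide 1 Saa2 was 1.39, Saa3 1.65 and Orm3 3.35, and within slide 2 Saa1 was -1.73, Saa4 -0.71, Orm1 -0.61, Orm2 -0.72, Hp -0.046, Lcn2 -3.20 and Apcs -0.15. Array weights turned Saa1 to -0.26 and Lcn2 to -0.37. With the replicate number as a block Orm1 turned to -0.20, the median was 0.06 and no member passed, and the numbers do not pair animals. Without the 2 arrays with high muscle markers (KO 3 and WT 1), Saa3 was 0.27, Orm3 1.00 and Hp -0.059.

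Beyond these turns, changes near the members' medians are small beside their spread between 3 and 3 animals. All usable spots of the members were well above background, and whether signal strength limits their precision was not tested. The within-slide values rest on 3 arrays each, and a lone array is assumed there to vary like the others.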

Other observations

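Arrays that stood apart from all others by over 1 log2 unit were counted over all genes for comparison. KO 3 was highest in this way in 239 genes, none of them a member, and KO 1 in 128 genes, 6 of them members. KO 2 was lowest by over 1 log2 unit in 85 genes, 3 of them members.

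In the authors' deposited matrix the column labelled KO 2 was closest to the scanner array of KO 3 (correlation 0.9991 over 20644 probes) and the column labelled KO 3 to that of KO 2 (0.9992), whereas their own correlations were -0.0797 and -0.0763. The other columns correlated best with their own array. Both columns are Itpr2KO, so the genotype means of the members are not touched, and levels per array are those of the scanner tables.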
